A study of Rattus norvegicus with 10 samples.

Results

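The glucocorticoid receptor gene Nr3c1 and Fkbp5, a gene that the receptor controls, were followed in the cerebral cortex of 10 fetal rats. They are 2 of the 26404 gene features counted in each library, and they were taken by identifier, ENSRNOG00000014096 for Nr3c1 and ENSRNOG00000022523 for Fkbp5. The files hold no gene symbols, so the names rest on these identifiers as given and were not checked against a table that pairs identifiers with symbols. Both identifiers were present, on chromosome 18 and chromosome 20 as required, and both were among the 14400 features abundant enough to be tested. The animals were Sprague Dawley rats with no labelled genetic modification, and the right cortex was collected at embryonic day 21. In the oxytocin group (n = 5 pups, each from a different dam), the dam had received oxytocin intravenously at 100 mcg per kg 24 h earlier. In the saline group (n = 5 pups from 5 other dams), the dam had received the same volume of saline. Oxytocin is a peptide hormone of the posterior pituitary that makes the uterus contract, and the fetus was exposed through the mother. The labels do not give the sex of the fetuses. RNA was selected with oligo-dT and sequenced in 1 run, to 18723390 to 30404127 assigned reads in the oxytocin libraries and 18555172 to 20776414 in the saline libraries.

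Glucocorticoids are steroid hormones of the adrenal cortex that are released under stress and rise in the fetus before birth. In the cell they bind the glucocorticoid receptor, which is held ready in the cytoplasm by heat shock protein chaperones, then moves to the nucleus and switches target genes on or off. FKBP51, the protein made from Fkbp5, is one of those cochaperones. It lowers the receptor's affinity for hormone, and its gene is itself strongly induced by the active receptor, which closes a short negative feedback loop. Fkbp5 mRNA is for this reason widely used as a readout of glucocorticoid action in brain. The comparison asked whether the level of either transcript differed in the fetal cortex 24 h after the maternal dose. The mean level of Nr3c1 after oxytocin was 1.11 times that after saline and the mean level of Fkbp5 was 0.932 times that after saline (n = 5 each), and neither difference passed the test across all features.

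The RefSeq windows around the annotated starts of both genes are shown because the receptor acts on DNA, and they let a reader see what lies next to each start. Each window runs from 250 bases before to 50 bases after a start in the GRCr8 assembly, which is not the build named for the counts. A pair of motifs was searched on both strands. The first was the palindromic glucocorticoid response element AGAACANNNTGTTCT and its half-site AGAACA, which reads as TGTTCT on the other strand and lies inside the palindrome. The second was the GC box GGGCGG, which reads as CCGCCC on the other strand, the letters that Sp1-family factors bind. Capitals mark the GC boxes.
Fkbp5 window, chr20:6543506-6543805, minus strand: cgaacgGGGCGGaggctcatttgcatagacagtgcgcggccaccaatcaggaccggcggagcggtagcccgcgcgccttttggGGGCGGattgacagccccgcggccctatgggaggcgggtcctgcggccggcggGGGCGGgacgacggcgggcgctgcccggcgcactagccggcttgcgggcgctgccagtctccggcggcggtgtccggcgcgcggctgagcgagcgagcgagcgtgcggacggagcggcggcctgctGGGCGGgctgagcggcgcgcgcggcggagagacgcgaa
Nr3c1 upstream window, chr18:31614170-31614469, minus strand: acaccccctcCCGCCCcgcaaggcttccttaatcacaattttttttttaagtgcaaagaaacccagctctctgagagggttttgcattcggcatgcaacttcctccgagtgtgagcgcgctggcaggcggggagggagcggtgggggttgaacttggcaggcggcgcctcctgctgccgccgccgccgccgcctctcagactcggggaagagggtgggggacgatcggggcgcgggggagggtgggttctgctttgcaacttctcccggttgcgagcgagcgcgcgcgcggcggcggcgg
Nr3c1 downstream window, chr18:31613390-31613689, minus strand: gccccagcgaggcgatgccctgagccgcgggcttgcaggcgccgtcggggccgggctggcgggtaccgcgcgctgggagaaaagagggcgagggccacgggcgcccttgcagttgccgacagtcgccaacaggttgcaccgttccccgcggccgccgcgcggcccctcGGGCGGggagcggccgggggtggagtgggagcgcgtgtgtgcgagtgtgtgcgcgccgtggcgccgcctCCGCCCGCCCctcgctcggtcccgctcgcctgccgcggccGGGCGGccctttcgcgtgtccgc

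GC boxes were found 4 times in the Fkbp5 window, 1 time in the upstream Nr3c1 window and 4 times in the downstream one. The same letters were present in 33.1% of all 33469 RefSeq windows of this length. The response element and its half-site were found 0 times in the 3 windows, while 0.0149% of all windows held the palindrome and 20.7% the half-site. GC content was 77.0% in the Fkbp5 window and 66.0% and 79.0% in the Nr3c1 windows, against a median of 51.7%. No match says only that these letters are not in these 300 bases.

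The part of each gene over which reads were counted differed between the genes. Coordinates below are those of the deposited files, for which the submitters' processing notes name the build Rnor_5.0. Fkbp5 (chromosome 20, 10177067 to 10219361, minus strand) was listed with 10 exon intervals that sum to 3387 bases. Its final interval, of 2095 bases, made up 61.9% of that length, and the 9 others were 84 to 240 bases long. Nr3c1 (chromosome 18, 31408742 to 31430004, minus strand) was listed with 7 exon intervals that sum to 5081 bases. Its final interval, of 4082 bases, made up 80.3% of the length, and the 6 others were 117 to 276 bases long. The receptor's transactivation domain is encoded by a single long exon near the start of the coding sequence. No listed interval of Nr3c1 other than the final one is of such a size, so reads from the 5′ part of the transcript did not enter its count. Neither gene span overlapped another listed feature on either strand, so no read could have been shared with a listed neighbour by position.

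**Figure D1:**
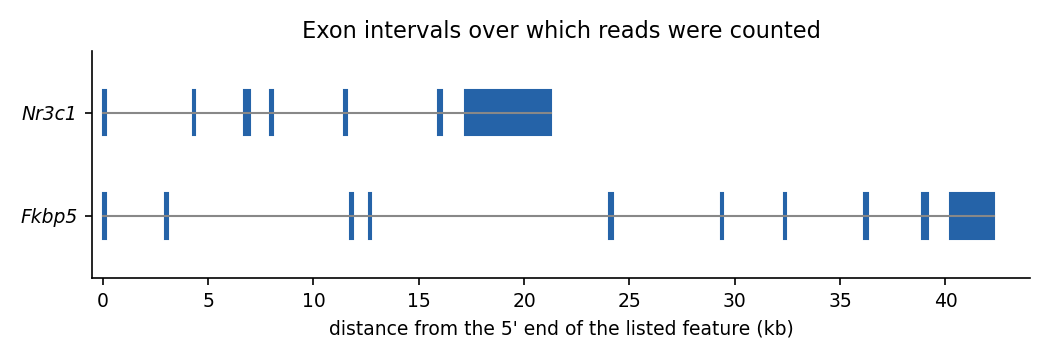
Exon intervals over which reads of Nr3c1 and Fkbp5 were counted (filled boxes), drawn to scale against distance from the 5′ end of the listed feature in kilobases. The final interval holds 80.3% of the counted length of Nr3c1 and 61.9% of that of Fkbp5.

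Fkbp5 was the more abundant transcript per unit length in every library. Its deposited RPKM, which is the CPM per kilobase of listed exon, averaged 27.5 over the 10 libraries, above 73.6% of the tested features. The RPKM of Nr3c1 averaged 4.59, above 29.1% of the tested features, where the median feature stood at 11.5. The RPKM ratio of Fkbp5 to Nr3c1 ran from 4.8 to 6.85 over the 10 libraries. In bulk tissue, fewer cells that express a gene and less RNA per cell cannot be told apart, and this holds for every value that follows.

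For the receptor, the oxytocin libraries 1 to 5 held 807, 600, 530, 503 and 406 reads of Nr3c1, or 26.5, 24.1, 23.9, 25.6 and 21.7 in deposited CPM, the count scaled to a common library total. The saline libraries 1 to 5 held 445, 469, 440, 385 and 434 reads, or 22.6, 22.6, 22.3, 20.6 and 23.4 CPM. Of the oxytocin libraries, 4 lay above every saline library, and replicate 5 lay inside the saline range, so the groups overlapped. On the log2 CPM scale with TMM scaling, a factor per library that corrects for differences in RNA composition, the mean level was 4.62 ± 0.10 (SD, n = 5) after oxytocin and 4.47 ± 0.062 (SD, n = 5) in the saline group.

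The mean level of Nr3c1 was 11.4% higher after oxytocin, a log2 fold change of 0.156 ± 0.0614 (SE) with a 95% interval from 0.024 to 0.289. Its unadjusted p was 0.0244, rank 234 of 14400, and the p adjusted over all features was 0.9997 (edgeR's quasi-likelihood test, Benjamini-Hochberg adjustment). The difference therefore did not pass the threshold of 0.05 across the transcriptome. Taken alone, the difference in mean log2 CPM of 0.152 had an exact two-sided permutation p of 0.0317, where 0.0079 is the smallest value that 5 against 5 can give. Leaving out 1 library leaves fewer assignments to enumerate, but an exact permutation p of 0.00794 was still reached without oxytocin replicate 5. The difference was 0.122 without oxytocin replicate 1, 0.134 without oxytocin replicate 4 and 0.127 without saline replicate 4, each with an exact permutation p of 0.0635. It was 0.152 without saline replicate 2, as with all libraries, with an exact permutation p of 0.0556. With libraries scaled by their totals alone it was 0.126 (exact permutation test, p = 0.0794, n = 5 each).

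For the cochaperone, the oxytocin libraries 1 to 5 held 2728, 2244, 2051, 1610 and 1695 reads of Fkbp5, or 89.7, 90.2, 92.3, 81.9 and 90.5 deposited CPM. The saline libraries 1 to 5 held 1819, 2062, 1932, 1757 and 1909 reads, or 92.4, 99.2, 97.9, 94.0 and 102.9 CPM. In deposited CPM all 5 oxytocin libraries lay below all 5 saline libraries, although the highest oxytocin value, 92.34, and the lowest saline value, 92.38, were separated by less than the counting error of either. With TMM scaling the groups overlapped, since oxytocin replicate 3 stood at 6.54 log2 CPM and saline replicate 1 at 6.53. Groups that did not overlap were found for 0.896% of the tested features in deposited CPM and for 0.701% in TMM-scaled log2 CPM.

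Fkbp5 stood at 6.49 ± 0.068 log2 CPM (SD, n = 5) after oxytocin and at 6.59 ± 0.054 log2 CPM (SD, n = 5) after saline. The log2 fold change was -0.102 ± 0.0455 (SE) with a 95% interval from -0.200 to -0.0038, which is a mean level 0.932 times that after saline. The unadjusted p was 0.0429, rank 430 of 14400, and the adjusted p was 0.9997 (edgeR's quasi-likelihood test, Benjamini-Hochberg adjustment), so this difference did not pass the threshold either. The exact two-sided permutation p of the difference in mean log2 CPM was 0.0159, and it ran from 0.00794 to 0.0476 when each library was left out in turn. Oxytocin replicate 4 was the lowest of the 10 libraries, at 6.37 log2 CPM. Without it the log2 fold change was -0.0759 ± 0.0446 (SE), and edgeR gave it an unadjusted p of 0.114. The unadjusted edgeR p of Fkbp5 stayed under 0.05 in 5 of the 10 fits that left out 1 library. It was 0.0519 with upper quartile scaling and 0.0521 with no filter on low counts.

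**Figure D2:**
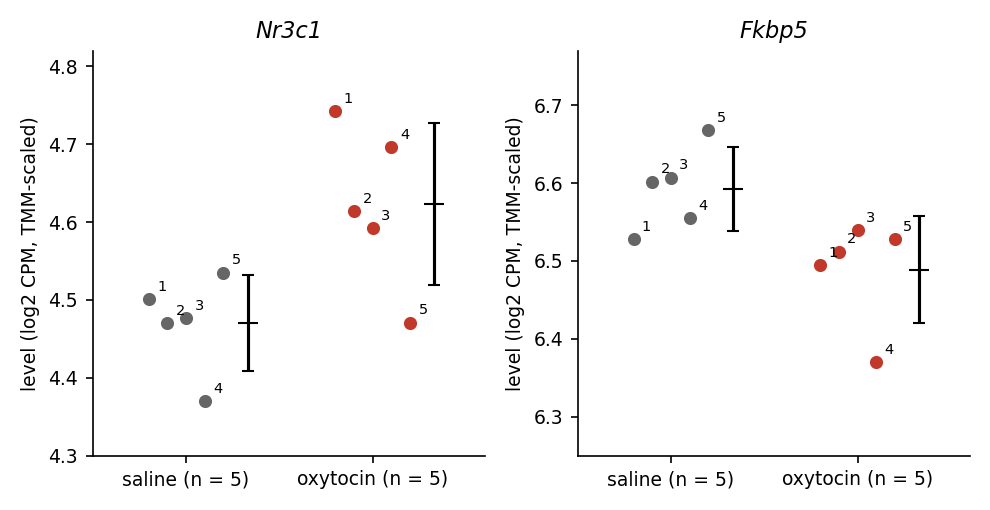
Level of Nr3c1 and Fkbp5 in each library, in TMM-scaled log2 CPM, for the saline (grey) and oxytocin (red) groups. Points are libraries with their replicate numbers, and bars give the mean and SD of 5. For Nr3c1, 4 oxytocin libraries stand above the saline range. For Fkbp5 4 stand below it, but oxytocin replicate 5 and saline replicate 1, the lowest saline library, both round to 6.528.

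Across the transcriptome, edgeR's quasi-likelihood test called 0% of the 14400 tested features at an adjusted p under 0.05, so the 2 genes share that outcome with every other feature. DESeq2, fitted to 20274 features, called 11, and limma voom called 0 of 14400. The 11 were counted among the features that DESeq2's independent filtering kept, so they do not compare directly with edgeR's 0. DESeq2 gave neither Nr3c1 nor Fkbp5 an adjusted p, because its independent filtering set both aside, and its unadjusted p was 0.0262 and 0.0387. An unadjusted p under 0.05 was found for 514 features, 3.57% of those tested, with 1.93% higher and 1.64% lower after oxytocin. Both genes belong to that 3.57%, Nr3c1 on the higher side and Fkbp5 on the lower side. That share does not exceed the fraction of 0.05 that this threshold lets through where nothing differs. Larger absolute changes than that of Nr3c1 were found for 15.1% of the tested features, and larger ones than that of Fkbp5 for 26.7%. The median log2 change of all features was -0.0031.

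**Figure D3:**
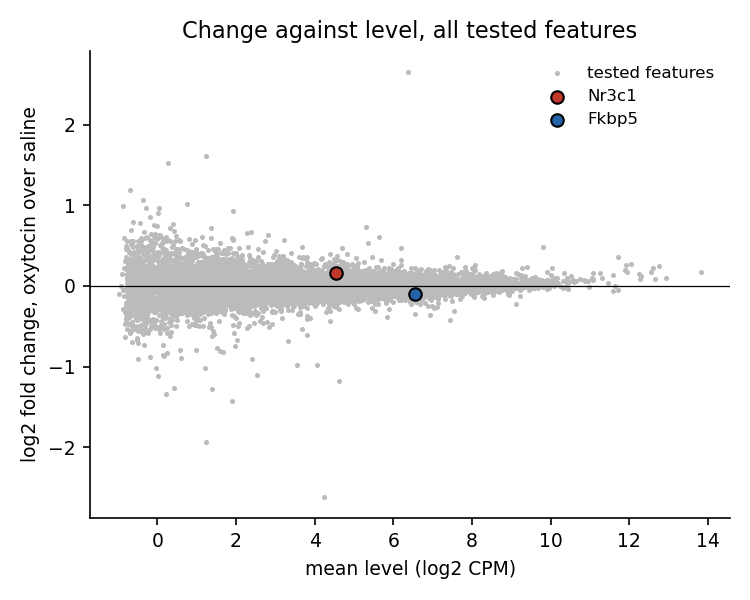
Log2 fold change of oxytocin over saline (vertical axis) against mean log2 CPM (horizontal axis) for the 14400 tested features (grey), with Nr3c1 in red and Fkbp5 in blue. Nr3c1 lies at 0.156 and Fkbp5 at -0.102.

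The precision of these values can be read from the counts. With 385 to 807 reads of Nr3c1 per library, counting error alone gives an SD of 0.062 log2 units for the oxytocin libraries and 0.0694 for the saline ones. The observed SD of Nr3c1 was 1.68 times as large among the oxytocin libraries and 0.891 times as large among the saline ones. An SD over 5 libraries is itself imprecise, and a ratio near 1 does not show that the fetuses had the same level. Fkbp5, with at least 1610 reads per library, had a counting SD of 0.0323 and 0.0332, and the observed SD was 2.12 and 1.62 times as large. The biological coefficient of variation that edgeR estimated was 6.70% for Nr3c1 and 5.70% for Fkbp5. edgeR moderates these estimates toward the trend over all features, which stood at 9.63% and 8.06% at the levels of the 2 genes. They are not each gene's own spread, and the quasi-likelihood test behind the p-values and intervals does not use them. The 95% interval of the change after maternal oxytocin spans 1.65% to 22.15% for Nr3c1 and -12.97% to -0.261% for Fkbp5, so a doubling or a halving of either transcript lies outside it. These intervals are for each gene alone and are not adjusted for the number of features tested.

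The ratio of the cochaperone to the receptor was formed within each library, where the scaling between libraries cancels. The oxytocin libraries 1 to 5 held 3.38, 3.74, 3.87, 3.20 and 4.17 reads of Fkbp5 for each read of Nr3c1. The saline libraries 1 to 5 held 4.09, 4.40, 4.39, 4.56 and 4.40. In all, 4 oxytocin libraries lay below the lowest saline library, and oxytocin replicate 5 lay between saline replicates 1 and 3. The log2 ratio was 1.87 ± 0.15 (SD, n = 5) after oxytocin and 2.13 ± 0.058 (SD, n = 5) for saline, a difference of -0.255. This difference combines those already given for each gene and was not tested on its own.

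Levels of the 2 genes were compared across the 10 libraries. Pearson's r was -0.588 (permutation p = 0.0715) and Spearman's rho was -0.624 (permutation p = 0.0601), with Benjamini-Hochberg adjusted values of 0.107 and 0.18 over the 3 relations computed. Without oxytocin replicates 1 and 4, the libraries farthest from the median of Nr3c1, r was -0.152. Taking out the most extreme libraries, both of the oxytocin group, narrows the range and by itself tends to weaken r. With each value centred on its group mean, r was -0.208 (permutation p = 0.568). No correlation was computed within a group of 5.

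The level of Nr3c1 was also set against library depth, because oxytocin replicate 1 was both the deepest library and the one with the highest Nr3c1 level. This comparison was chosen after the values had been seen. Across the 10 libraries r was 0.712 (permutation p = 0.019, adjusted p = 0.057) and rho was 0.503 (permutation p = 0.143, adjusted p = 0.215) between Nr3c1 and the log2 of the total count. Without oxytocin replicates 1 and 4 that r was 0.745, and with values centred on their group means it was 0.563. For Fkbp5 the same relation had r = -0.268 (permutation p = 0.41, adjusted p = 0.41) and rho = -0.394 (permutation p = 0.264, adjusted p = 0.264). Its r was -0.57 without oxytocin replicate 4 and saline replicate 5, the libraries farthest from the median of Fkbp5, and turned to 0.15 with values centred on their group means. Without oxytocin replicate 1 the log2 fold change of Nr3c1 was 0.121 ± 0.0634 (SE). The share of reads on mitochondrial genes was 6.31% to 6.61% in the oxytocin libraries and 5.17% to 5.996% in the saline ones. With mitochondrial reads left out of the scaling, the log2 fold change was 0.157 for Nr3c1 and -0.102 for Fkbp5. The part of depth in the result for Nr3c1 was not tested further.

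**Figure D4:**
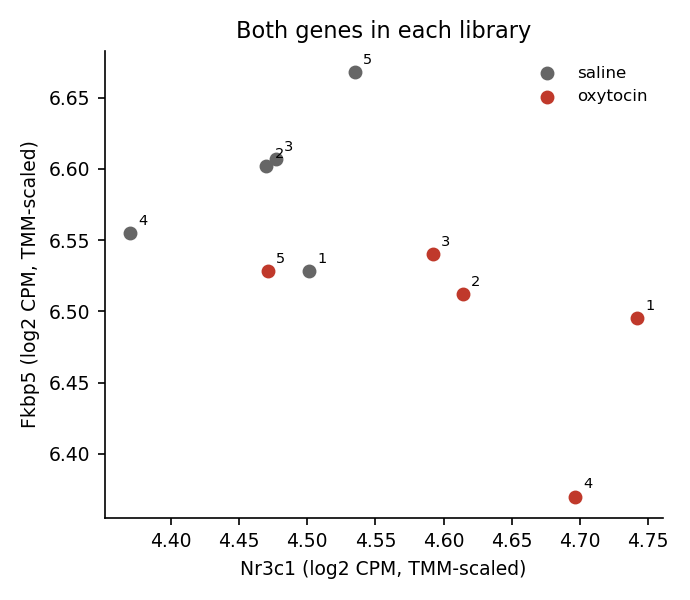
Fkbp5 (vertical axis) against Nr3c1 (horizontal axis) in TMM-scaled log2 CPM, with each point a library labelled by its replicate number, saline in grey and oxytocin in red. Oxytocin replicates 1 and 4 have the highest Nr3c1 levels, and replicate 4 also has the lowest Fkbp5 level.

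The features whose levels followed each gene most closely over the 10 libraries can be given by identifier only, because the gene table at hand paired 0 of the 26404 identifiers with a symbol. For Nr3c1 they were ENSRNOG00000028108 (chromosome 14, 77783866 to 77788875, minus strand), with r = 0.911, and ENSRNOG00000015857 (chromosome 3, 167484246 to 167489974, plus strand), with r = 0.908. The first of these held only 12 to 43 reads per library. For Fkbp5 they were ENSRNOG00000007486 (chromosome 4, 209889721 to 210066748, plus strand), with r = 0.945, and ENSRNOG00000018642 (chromosome 1, 74814349 to 74826049, plus strand), with r = 0.932. These values are the highest among 14400 features in libraries that share their scaling, and they describe a likeness of pattern over 10 libraries only. Picking features by likeness over the same libraries largely fixes the direction of their change in advance. The log2 fold changes of the features like Nr3c1 were 0.576 and 0.089, and those of the features like Fkbp5 were -0.132 and -0.152. Each had an adjusted p of 0.9997 by edgeR.

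The nearest listed features on each side of the genes were also read. On the side of lower coordinates, the nearest feature to Nr3c1 lay 105291 bases away and had a log2 fold change of -0.007 ± 0.0595 (SE). On the side of higher coordinates, the nearest lay 63579 bases away and had -0.101 ± 0.16 (SE). The nearest features to Fkbp5, at 33135 and 89605 bases, held at most 17 reads in any library and were too low to test. Both features beside Nr3c1 had an adjusted p of 0.9997 by edgeR.

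**Figure D5:**
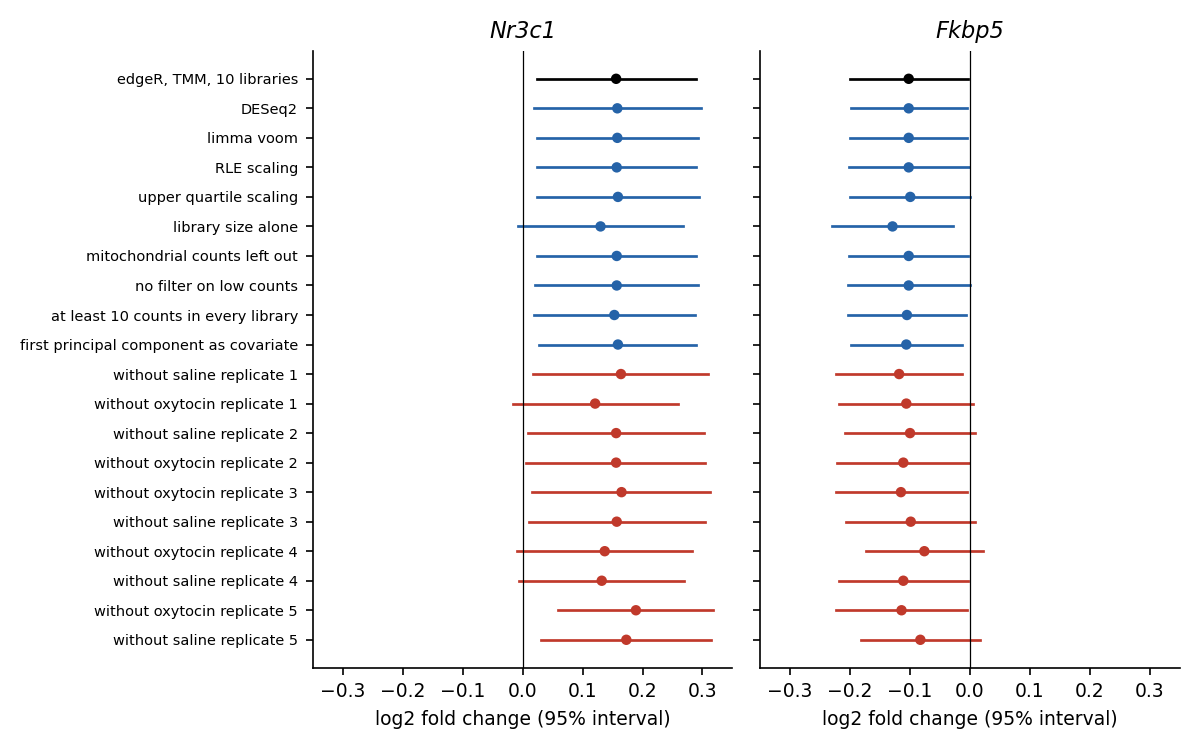
Log2 fold change of Nr3c1 and Fkbp5 with 95% intervals (horizontal axis) under the chosen fit (black), 9 other settings with all 10 libraries (blue) and 10 fits that leave out 1 library (red). Every estimate lies above 0 for Nr3c1 and below 0 for Fkbp5, and some intervals cross 0 in both panels.

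Under these 19 other fits the estimate for Nr3c1 stayed between 0.121 and 0.189 and that for Fkbp5 between -0.129 and -0.0759. The lowest adjusted p was 0.7862 for Nr3c1 and 0.7983 for Fkbp5, both from edgeR with the leading principal component of nuclear features as a covariate. Other genes of the glucocorticoid pathway (the mineralocorticoid receptor, the steroid-converting enzymes, the heat shock proteins and further receptor targets) and markers of cortical cell types were not analysed here, since their identifiers could not be paired with names.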

How the data were processed

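Each of the 10 libraries has 1 deposited file. Per the file headers it lists 26404 Ensembl features with exon coordinates, a raw read count, CPM and RPKM. The CPM deposited by the authors is the read count as a share of all counts of that file, scaled to a common total, and the deposited RPKM is that CPM per kilobase of listed length; both relations held to within 7.09e-11. The submitters' processing notes name bcl2fastq, STAR 2.0.4b, Subread, featureCounts 1.45 and the build Rnor_5.0. The handling of strand and of reads with several matches is not given in the sources used here.

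Counts were filtered with filterByExpr (14400 features left), scaled with TMM (factors 0.983 to 1.02) and tested with edgeR 4.0.16 in R 4.3.3 (glmQLFit, glmQLFTest, no covariates, Benjamini-Hochberg over all features). SE is the log2 change divided by the square root of F. Log2 CPM used a prior count of 2. Exact permutation tests enumerated all 252 assignments, and correlations used 100000 resamples. Alternatives were DESeq2 1.42.0, limma 3.58.1 voom, other scalings and filters, a principal component and leaving out each library. The fits were tried on simulated data. The 20 pairs of libraries within groups differed by 4.08 to 18.3 chi-square per degree of freedom, so each counted as 1 replicate. The SD from counting treats each read as a separate molecule, which holds only in part without molecular identifiers.

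Members and lists were chosen with earlier results of these data known. The named features are the 2 genes, the 2 features most like each by Pearson's r, and any that overlap them. The pathway and marker lists were not run, since 0 of 26404 identifiers were paired with symbols. The promoter windows are from RefSeq (GRCr8), where both symbols matched.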

Additional observations from a re-analysis of the deposited data

Results flagged for a closer look

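The level of Fkbp5 in oxytocin replicate 4 stood apart from the other 4 oxytocin libraries. It was 6.37 log2 CPM, where the others were 6.495 to 6.54, and the gap was 0.736 of the group's range, above Dixon's 95% critical value of 0.71. The library held 1610 reads of Fkbp5 among 19651678, and its Nr3c1 level, 4.696 log2 CPM, was the second highest of the group. Both genes and their log2 ratio were checked in both groups, 6 checks in all, and chance flags about 1 in 20.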

How the results depend on the processing

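No setting changed the direction of either gene or brought its p adjusted over all features under 0.05. Leaving out each library in turn gave log2 fold changes from 0.121 to 0.189 for Nr3c1 and from -0.118 to -0.0759 for Fkbp5. The unadjusted edgeR p stayed under 0.05 in 7 of those 10 fits for Nr3c1 and in 5 for Fkbp5. With all libraries it rose above 0.05 for Nr3c1 with library size alone (0.0625) and for Fkbp5 with upper quartile scaling (0.0519) and with no filter (0.0521). DESeq2's independent filtering left both genes without an adjusted p. The number of features past the adjusted threshold was 0 in edgeR's quasi-likelihood test and 1 with the first principal component as covariate. With DESeq2 it was 11, counted among the features that its independent filtering kept. It was 0 under each of the 7 other settings, with 494 to 728 features at an unadjusted p under 0.05, and 0 without each library, with 420 to 841. The difference in mean log2 CPM of Nr3c1 lost its permutation call with scaling by library size alone (0.126, exact permutation p = 0.0794) and ran from 0.122 to 0.19 without each library. That of Fkbp5 ran from -0.119 to -0.073. The log2 ratio of Fkbp5 to Nr3c1 differed by -0.303 to -0.207 without each library. The correlation of both genes was -0.481 with library size alone. Read counts of 385 to 807 per library limit the precision for Nr3c1, and its count leaves out the 5′ part of the transcript. The part of library depth in its result was not tested further. The pathway lists were not run. Replicate numbers follow accession order and pair no fetuses.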
